A study of Drosophila melanogaster with 4 samples.

Results

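The regions described here are clusters of transcription start positions whose strongest position lay inside the 3' untranslated region (3' UTR) of a gene, on the gene's own strand. They were found by cap analysis of gene expression (CAGE), in which each read, called a tag, marks the capped 5' end of an RNA. A cluster was taken when its dominant position was more than 100 bp from every same-strand start site (TSS) annotated by Ensembl, outside sense 5' UTRs and coding sequence, and inside a sense 3' UTR. This held for 745 of 43632 consensus clusters, 1.71%. They lay in 593 host genes, all annotated as protein-coding.

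The RNA came from testes of Drosophila melanogaster males aged 0 to 2 days. Males of the knockdown group (genotype bamGAL4/ KmgRNAi) carried RNA interference against kmg, and control males carried bamGAL4 alone, so both groups shared the driver. The bam promoter drives expression in dividing germ cells shortly before they become spermatocytes. Both groups spent 3 days at 25 °C as crosses, and their eggs and young larvae then developed at 29 °C. Each of the 4 libraries was made from 150 pairs of testes, with 2 libraries per group. The deposited tables hold 1 pooled value per group, so no spread between libraries can be given, nothing here carries a p-value, and each difference is between 2 pools. Knockdown libraries were read at 150 bp and control libraries at 76 bp, so read length and genotype cannot be told apart.

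A 3' UTR follows the stop codon of a messenger RNA and holds sites for RNA-binding proteins, microRNAs and the cleavage that adds the poly(A) tail. Most transcription starts at promoters upstream of genes, but CAGE studies of other animals have also found capped ends within 3' UTRs, and both local initiation and capping of processed RNA have been discussed as their source. Kmg, a spermatocyte protein with zinc fingers, acts together with Mi-2, a remodeler of chromatin, and the study is concerned with its role in silencing cryptic promoters during male germ cell differentiation.

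The pooled knockdown held 34975246 tags and the pooled control held 56519714. Levels are given as tags per 1000000 tags of a group's clusters, written TPM. The kmg gene itself stood at 11.6 TPM in the knockdown and 48.5 TPM in control, 4.19-fold lower. Late spermatocyte and spermatid marker genes were present in both groups, with a summed level of 25476 TPM in the knockdown and 40153 TPM in control over the 26 genes whose names matched the annotation, of 28 listed, none of them at 0. Of these 40153 TPM, 1 gene held 10696 TPM, and the median log2 ratio of the late spermatocyte and spermatid genes was 0.04. Summed muscle markers (10 genes, none at 0) were at 513 TPM in the knockdown and 1507 TPM in control. Summed accessory gland markers (6 genes) were at 59.6 and 164 TPM in the same order, with 1 gene at 0 in the knockdown. Early germline markers (9 of 10 names matched) summed to 147 TPM in the knockdown and 61.9 TPM in control. Summed cyst cell markers (6 genes) were at 168 and 81.3 TPM in the same order. Of these 168 TPM, 1 gene held 121 TPM, and the median log2 ratio of the cyst genes was -0.38. Summed hub markers (5 genes) were at 136 TPM in the knockdown and 180 TPM in control, with a median log2 ratio of -0.23. In such bulk tissue, fewer cells of a type and less RNA per cell cannot be told apart, and the part of these lists in the results below was not tested. Over the 25902 consensus clusters called in both groups, knockdown exceeded control by a median of 0.71 on the log2 scale (1.64-fold), so calls are also given after dividing knockdown levels by that factor ("after rescaling"). The factor was not common to all positions. Clusters at annotated TSSs with 1 TPM or more in at least 1 group had a median log2 ratio of -0.04, and of -0.64 after rescaling.

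Start clusters in 3' UTRs were few and weak in both groups. Together they took 0.380% of all tags in the knockdown (95% Wilson interval 0.378 to 0.382) and 0.235% in control (0.234 to 0.237). These intervals cover counting error only. The median level of the 745 clusters was 2.54 TPM in the knockdown and 0.690 TPM in control. The strongest reached 136 TPM in the knockdown and 370 TPM in control, and both of these values belong to the same cluster, in CG6569. Coding exons, by comparison, carried 10.9% of all tags in the knockdown and 1.83% in control.

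Of the 745 clusters, 722 reached 1 TPM in at least 1 group and were tested, and the other 23 stayed between 0.885 and 0.991 TPM in control and at or below 0.915 TPM in the knockdown. A change was called at 4-fold, that is at a log2((knockdown + 1) / (control + 1)) of 2 or more, called gained, or of -2 or less, called lost. This scale understates changes of low clusters. By this rule 187 clusters were gained, 25.9% of those tested, where 33.1% of all tested consensus clusters were gained. Another 20 were lost, 2.77%, where 3.61% of all tested clusters were lost. Gained clusters thus made up 90.3% of the called 3' UTR clusters, and 76.1% after rescaling, with 108 gained (16.0% of 674, against 22.0% of all clusters) and 34 lost (5.04%, against 6.00%). Over all consensus clusters the gained made up 90.1% of those called, and 78.6% after rescaling. The median log2 ratio was 1.33 in the 3' UTR clusters tested and 1.49 over all clusters tested, and after rescaling it was 0.86 and 1.10. The filter was passed through the knockdown alone by 406 of the clusters and through control alone by 108, so these counts describe the clusters that the tables list and are no measure of how often 3' UTRs responded. No tag cluster was called in control in 217 of the 745 (29.1%, against 37.7% of all consensus clusters), and none in the knockdown in 31 (4.16%, against 2.92%).

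**Figure D1:**
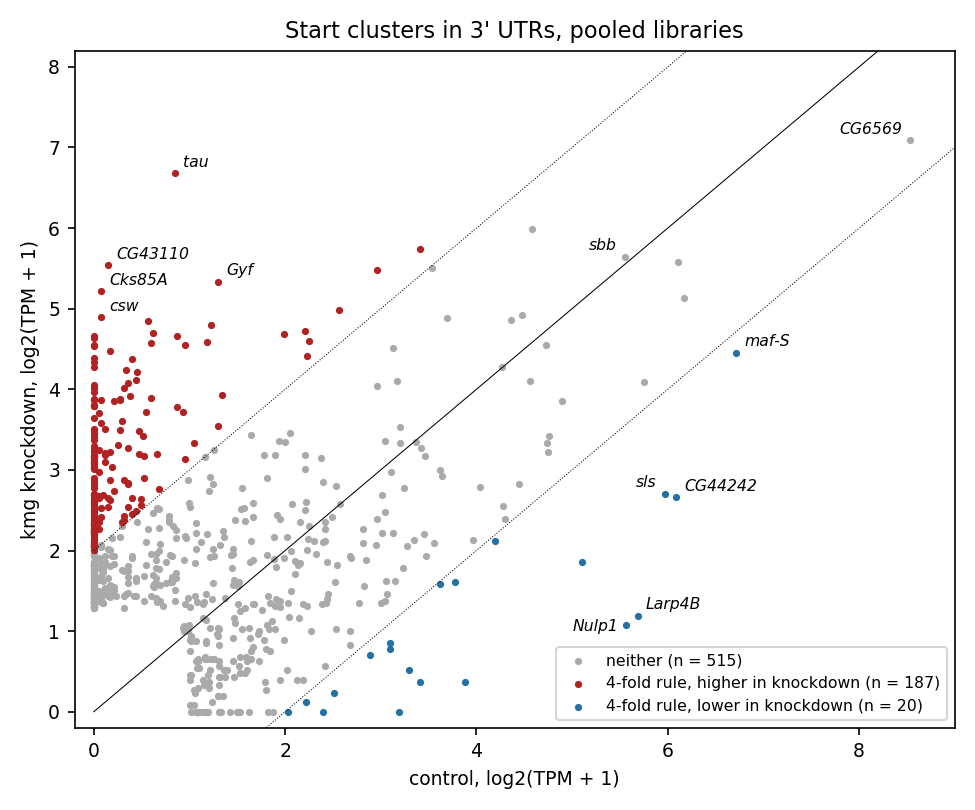
Level of each tested 3' UTR start cluster in the pooled kmg knockdown (vertical axis) and the pooled control (horizontal axis), both as log2(TPM + 1); 1 point is 1 cluster, the solid line marks equal levels and the dotted lines the 4-fold rule. The 187 gained clusters sit at 9.61 TPM or less in control, and the 20 lost clusters between 3.08 and 104 TPM in control.

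The gained clusters reached a median of 7.26 TPM in the knockdown, with a range of 3.03 to 102 TPM, and in 103 of the 187 no tag cluster was called in control. The strongest was in tau, which encodes a microtubule-associated protein. It lay on chromosome 3R from 27650842 to 27650935 (dm6, minus strand) and held 3555 tags in the knockdown and 45 in control, or 102 and 0.796 TPM. The ratio was 128 (95% exact counting interval 95.2 to 175), a log2 ratio of 5.84. In the knockdown its interquantile width, the distance between the positions below which 0.1 and 0.9 of the tags lie, was 2 bp, and the dominant base, the position with most tags, took 80.3% of the tags. That base lay 693 bases into a 3' UTR of 715 (the longest annotated at a position is used throughout), so 22 bases before the annotated end of the transcript. The annotated TSSs of tau stood at 36.0 TPM in the knockdown and 34.5 TPM in control, below the level of the 3' UTR cluster in the knockdown.

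In Cks85A, a small partner protein of cyclin-dependent kinases, a cluster on chromosome 3R from 8713519 to 8713630 held 1264 tags in the knockdown and 3 in control, or 36.1 and 0.0531 TPM, a ratio of 681 (232 to 3306). The kinase gene Cdk2 had a cluster at 23.9 TPM in the knockdown (chromosome 3R from 20737821 to 20737988). No tag cluster was called there in control, and the knockdown was at least 451-fold higher over a floor of 3 control tags. In csw (corkscrew), a tyrosine phosphatase of receptor tyrosine kinase signalling, the cluster was at 28.8 TPM in the knockdown and 0.0531 TPM in control (chromosome X from 2114189 to 2114289), a ratio of 542 (185 to 2635). The annotated TSSs of these genes differed less between groups. Their levels were 107 TPM in the knockdown and 54.0 TPM in control for Cks85A, 2.86 and 1.34 TPM for Cdk2, and 5.06 and 7.27 TPM for csw.

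Control tags were also present in several further named gained clusters. Srp9, a subunit of the signal recognition particle, had a cluster at 26.8 TPM in the knockdown and 1.34 TPM in control on chromosome 3L from 7936897 to 7937053, a log2 ratio of 3.57. Gyf, which encodes a GYF-domain protein, had 39.4 TPM in the knockdown and 1.45 TPM in control on chromosome 4 from 855290 to 855353, a ratio of 27.2 (21.7 to 34.4). The uncharacterised genes CG43110, CG9705 and CG6700 reached 45.4, 27.9 and 25.0 TPM in the knockdown, against 0.106, 0.478 and 0.531 TPM in control. In CG43110 the annotated TSSs were lower in the knockdown, with 0.114 TPM in the knockdown and 5.66 TPM in control.

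The remaining named gained clusters had no tag cluster called in control. They were in Grik, an ionotropic glutamate receptor gene of the kainate type, at 24.3 TPM (chromosome 3R from 20907868 to 20907925), in Ets21C, an ETS-domain transcription factor gene, at 22.4 TPM (chromosome 2L from 545838 to 546025), and in TMEM216, a gene whose mammalian counterpart acts at the base of cilia, at 22.2 TPM (chromosome 3R from 8718285 to 8718353). Over the floor these were at least 458-fold, 422-fold and 418-fold higher in the knockdown. The position in Ets21C, like those in Cks85A, Cdk2, TMEM216 and CG43110, also lay within a gene on the opposite strand.

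The 20 lost clusters had a median of 0.758 TPM in the knockdown and 10.4 TPM in control, and 9 of them were at 1 TPM or more in both groups. The highest was in maf-S, a small Maf transcription factor gene, at 20.9 TPM in the knockdown and 104 TPM in control (chromosome 2R from 20641556 to 20641660), 4.96-fold lower. Its dominant base was 11 bases into a 3' UTR of 122 and 185 bp upstream of the annotated TSS of the next gene, CG11110. A similar arrangement was found for CG44242, at 5.32 TPM in the knockdown and 67.1 TPM in control, whose cluster lay 181 bp upstream of CG42837. The annotated TSSs of CG11110 were at 58.9 TPM in the knockdown and 14.9 TPM in control, and those of CG42837 at 21.6 and 183 TPM. The 2 neighbours thus differed in opposite directions while both upstream clusters were lower in the knockdown.

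In Larp4B, a La-related RNA-binding protein gene, a cluster on chromosome 3L from 3234732 to 3234829, 2675 bases into a 3' UTR of 4495 was at 1.29 TPM in the knockdown and 50.4 TPM in control, 39.2-fold lower. The annotated TSSs of Larp4B stood at 4.23 and 2.97 TPM, so in control the 3' UTR cluster was the stronger start of the gene. Nulp1 (chromosome 3L from 8112853 to 8112911) showed 1.12 TPM in the knockdown and 46.4 TPM in control, 41.7-fold lower, and CG6136 (chromosome 3R from 15370864 to 15370977) showed 2.63 and 33.3 TPM, 12.7-fold lower. In sls, which encodes the muscle titin-like protein Sallimus, the cluster was at 5.52 TPM in the knockdown and 61.8 TPM in control (chromosome 3L from 2039937 to 2040043), 11.2-fold lower. The annotated TSSs of sls were at 1.74 TPM in the knockdown and 3.36 TPM in control. Those of the next same-strand gene, CG42355, 1779 bp downstream, were at 160 and 1202 TPM. The summed muscle markers stood at 513 TPM in the knockdown and 1507 TPM in control. Neither the part of muscle tissue nor that of this neighbour in the sls loss was tested. The clusters in CG4267 (3.35 and 17.3 TPM) and osy (0.286 and 13.7 TPM, knockdown and control in both cases) completed the 8 named losses. With a pseudocount of 3 TPM the log2 ratio of CG4267 was -1.68, short of the limit.

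Between these extremes, 515 clusters passed neither limit. The 8 highest among those within 2-fold after rescaling included sbb (scribbler, a nuclear repressor protein) at 49.1 TPM in the knockdown and 45.8 TPM in control, fest, a gene of spermatocyte translational control, at 29.4 and 21.3 TPM, and tral (Trailer hitch, an RNA granule protein) at 28.1 and 19.6 TPM. The beta subunit of the nascent polypeptide-associated complex, bic, had 22.5 TPM in the knockdown and 25.6 TPM in control, and the Hsp90 co-chaperone p23 had 18.4 and 18.2 TPM. Pen, an importin alpha gene, had 28.5 TPM in the knockdown and 11.9 TPM in control, with an interquantile width of 1 bp in both groups and 87.9% of its tags on 1 base. CG14929 stood at 62.3 TPM in the knockdown and 22.9 TPM in control, while its annotated TSSs were at 25.8 and 392 TPM. The cluster of CNBP, a zinc finger nucleic acid binding protein gene, was at 21.8 and 7.77 TPM. The CG6569 cluster, singled out for its level after its values were seen, was at 136 TPM in the knockdown and 370 TPM in control, a log2 ratio of -1.44 that passed the rule at -2.15 after rescaling.

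**Figure D2:**
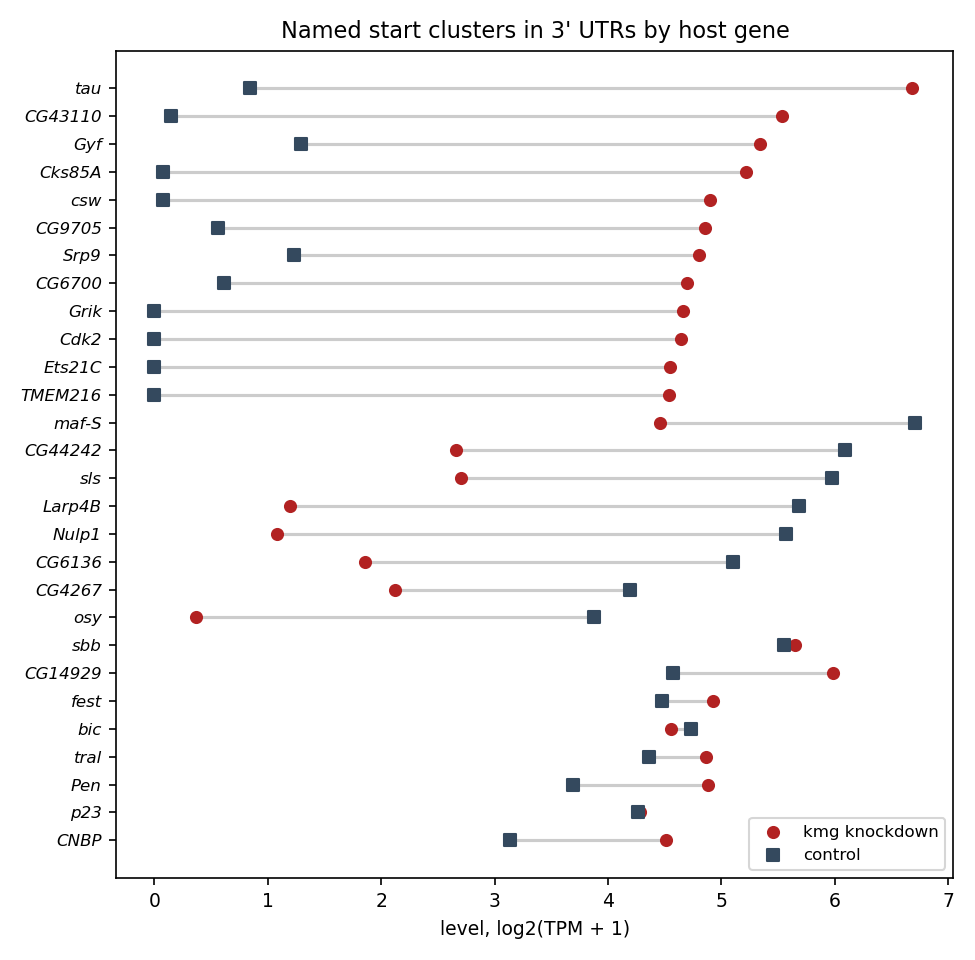
Levels of the named 3' UTR start clusters by host gene, as log2(TPM + 1), with the pooled kmg knockdown as circles and the pooled control as squares joined by a line; each symbol is 1 pooled value with no error. The upper 12 were gained, the next 8 lost, and the lowest 8 were within 2-fold after rescaling.

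Most hosts (510 of 593) had a single 3' UTR cluster, and 83 had 2 or more. In fest, 8 clusters lay between 74 and 1161 bases into a 3' UTR of 1428, and none was called. Their sum was 63.2 TPM in the knockdown and 47.6 TPM in control, beside 610 and 1056 TPM at the annotated TSSs. In pAbp, the poly(A)-binding protein gene, 8 clusters summed to 35.1 TPM in the knockdown and 60.7 TPM in control, and none of the 7 tested was called. In shep, an RNA-binding protein gene, 7 clusters summed to 16.4 TPM in the knockdown and 13.1 TPM in control, with none of the 6 tested called. In CG43187, 7 clusters lay between 2349 and 4082 bases into a 3' UTR of 4613, and 3 of these were gained. Their sum was 57.0 TPM in the knockdown and 1.77 TPM in control, and no cluster at an annotated TSS of CG43187 was found. CG31286, named after its values were seen, had 4 clusters of which 3 were gained, at a sum of 28.8 TPM in the knockdown and 0.265 TPM in control, while its annotated TSSs stood at 30.3 and 171 TPM. In 30 hosts a gained cluster shared the 3' UTRs of its gene with a cluster that was not gained.

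Start clusters in 3' UTRs became sparser with distance from the stop codon. Over the 745 clusters, the median dominant position was 247 bases into the 3' UTR, or 32.5% of its length, and 168 clusters (22.6%) lay in the initial 10% of the 3' UTR against 40 (5.37%) in the last 10%. Since longer distances exist only in long 3' UTRs, the counts were divided by the eligible sequence, meaning 3' UTR bases that met the positional rule. This sequence covers all annotated genes, expressed in testis or not. Far bins still hold only genes with long 3' UTRs, so distance and the genes in a bin cannot be told apart. Bases 1 to 50 had 198 clusters per Mb, bases 201 to 400 had 121, bases 401 to 800 had 93.2, and bases beyond 1600 had 46.0. The gained clusters followed the same order, at 43.9, 27.0, 23.9 and 16.3 per Mb. Seen from the annotated transcript end, density was 73.4 per Mb over the last 50 bases, 62.7 at 100 to 199 bases, and 160 at 400 to 799 bases from the end.

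On the other side of the stop codon, density near the stop was of a similar size and was higher farther from it. The last 50 coding bases held 253 coding-exon clusters per Mb and coding bases 51 to 100 before the stop held 194, beside 198 and 178 in the matching 3' UTR bins. Coding bases 201 to 400 before the stop held 761. The gained share of these coding clusters was 23.5% within 50 bases of the stop and 46.5% at 201 to 400 bases. A restriction to last coding segments of at least 400 bp, chosen once the data had been seen, gave 176 per Mb in the last 50 coding bases, 177 at 51 to 100 and 767 at 201 to 400. In all, eligible 3' UTR sequence (6858058 bases) held 109 clusters per Mb, of which 27.3 were gained, and eligible coding sequence (22173333 bases) held 498 per Mb, of which 228 were gained.

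**Figure D3:**
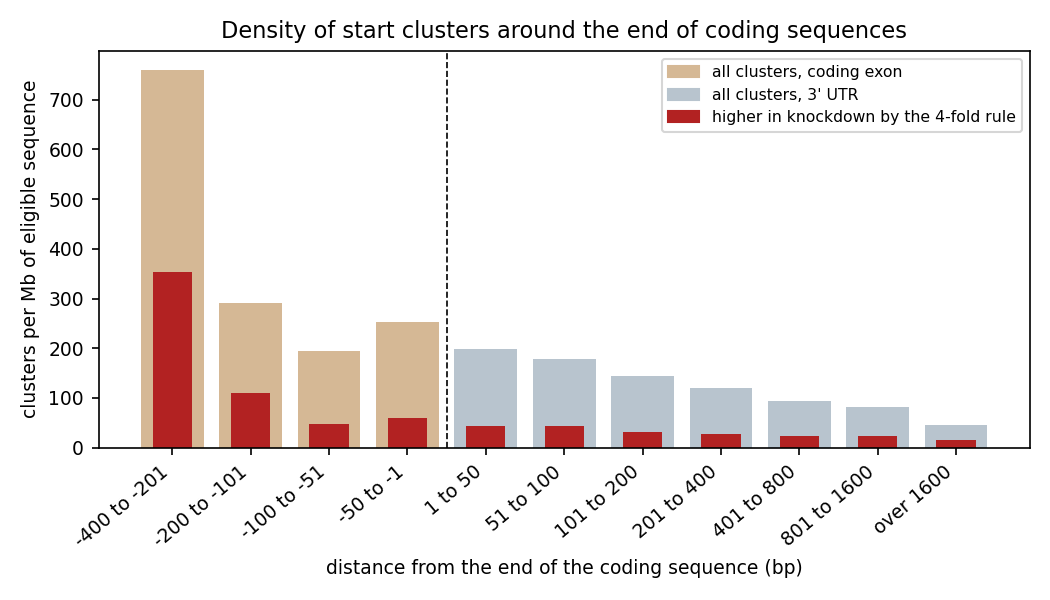
Start clusters per Mb of eligible sequence (vertical axis) in bins of distance from the end of the coding sequence (horizontal axis, negative in coding exons, positive in 3' UTRs, dashed line at the stop); wide bars are all consensus clusters and narrow red bars those gained in the knockdown. Density is 761 per Mb at 201 to 400 coding bases before the stop, 198 in the initial 50 bases of the 3' UTR and 46.0 beyond 1600 bases.

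A gain could only be called where enough tags were present. At these depths the rule needed at least 170 tags in all for a loss, all of them from control. For a gain it needed at least 105 tags in all, all of them from the knockdown, so gains could be called at lower counts than losses. Of the 722 tested 3' UTR clusters, 484 reached 105 tags, and 38.6% of these 484 were gained. The same share was 70.5% in coding exons, 58.9% in introns, 26.8% in 5' UTRs and 8.13% at annotated TSSs. Levels differ between these classes, so 3' UTRs and coding exons were set side by side within bands of total tags. From 100 up to 300 tags, 35.7% of 311 3' UTR clusters and 62.2% of 4194 coding-exon clusters were gained. From 300 up to 1000 tags the shares were 42.0% of 150 and 77.9% of 2198, and from 1000 tags they were 30.2% of 43 and 71.8% of 1021. Lost clusters in that last band made up 16.3% of the 3' UTR clusters and 3.33% of the coding-exon clusters. The 3' UTR shares were thus the lower for gains in each of these 3 bands, a difference of these pooled libraries that no test could be put to.

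**Figure D4:**
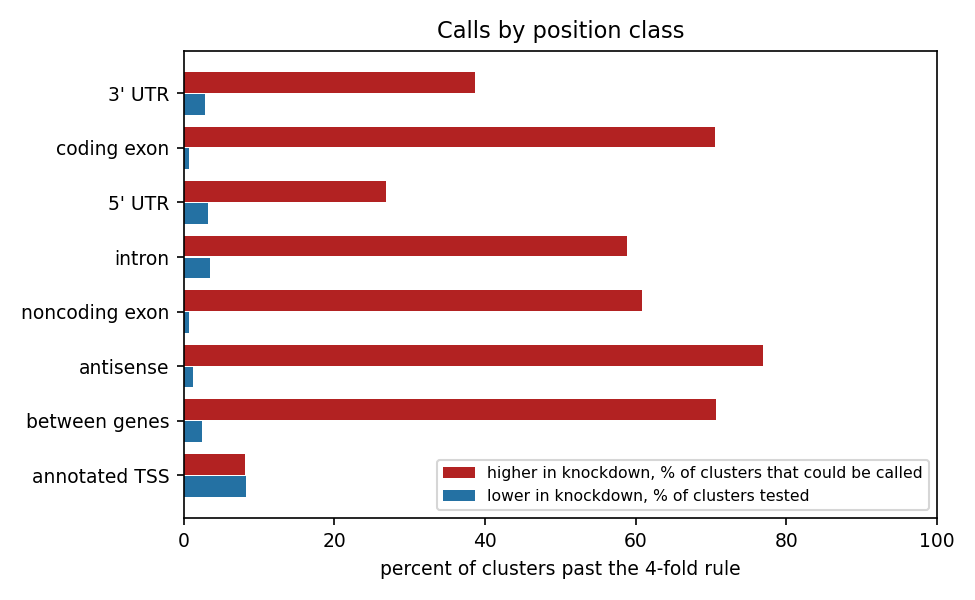
Percent of consensus clusters past the 4-fold rule by position class (1 pair of bars per class); red bars are clusters gained in the kmg knockdown as a percent of those with enough tags to be called, blue bars are clusters lost as a percent of those tested. The 3' UTR class stands at 38.6% gained and 2.77% lost, between 5' UTRs and introns for gains. Red and blue bars have different denominators.

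Host promoters stayed within 2-fold for similar shares of gained and uncalled 3' UTR clusters. Annotated TSSs with at least 1 assigned cluster were found for the hosts of 156 gained 3' UTR clusters. In 104 of these (66.7%) the host TSS level stayed within 2-fold between knockdown and control, in 27 it was at least 2-fold higher and in 25 at least 2-fold lower. The share was 274 of 451 (60.8%) for uncalled clusters and 401 of 644 (62.3%) over all 3' UTR clusters with a host TSS. With host levels rescaled, 84 of the 156 gained and 214 of the 451 uncalled had a host within 2-fold. The median host TSS log2 ratio was -0.14 for gained and -0.31 for uncalled 3' UTR clusters. Of 18 lost clusters with a host TSS, 11 had a host within 2-fold. Across the 625 tested clusters with a host TSS, Spearman's rho between the log2 ratio of the cluster and that of its host was 0.17. This is a description across clusters that share libraries and hosts, with no p-value.

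Relative to the host promoter, 3' UTR clusters were small. Where the host TSS reached 1 TPM, the median 3' UTR cluster stood at 5.33% of the host TSS level in the knockdown and 0.663% in control. Gained clusters stood at a median of 34.7% of their host in the knockdown, and 46 of them exceeded it. The gain rule itself selects for a high knockdown level, and 174 of the 187 gained clusters passed the filter through the knockdown alone. The 34.7% therefore cannot be read as a trait of gained clusters apart from that selection. Hosts of gained clusters had lower promoters than hosts of uncalled clusters, with median TSS levels of 21.4 TPM in the knockdown and 22.1 TPM in control, against 42.8 and 59.9 TPM for the uncalled. Of 147 clusters whose host TSS was under 10 TPM in control, 40.1% were gained. That share was 24.2% of 265 at 10 to 100 TPM and 16.4% of 189 at 100 to 1000 TPM, and 2 of 24 were gained above that. A gained cluster in a coding exon was found in 58 of the 174 hosts of gained 3' UTR clusters (33.3%), against 29.5% of all 12386 genes with a tested sense cluster. It was also found in 130 of the 420 hosts of uncalled 3' UTR clusters (31.0%) and in 8 of the 20 hosts of lost ones.

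**Figure D5:**
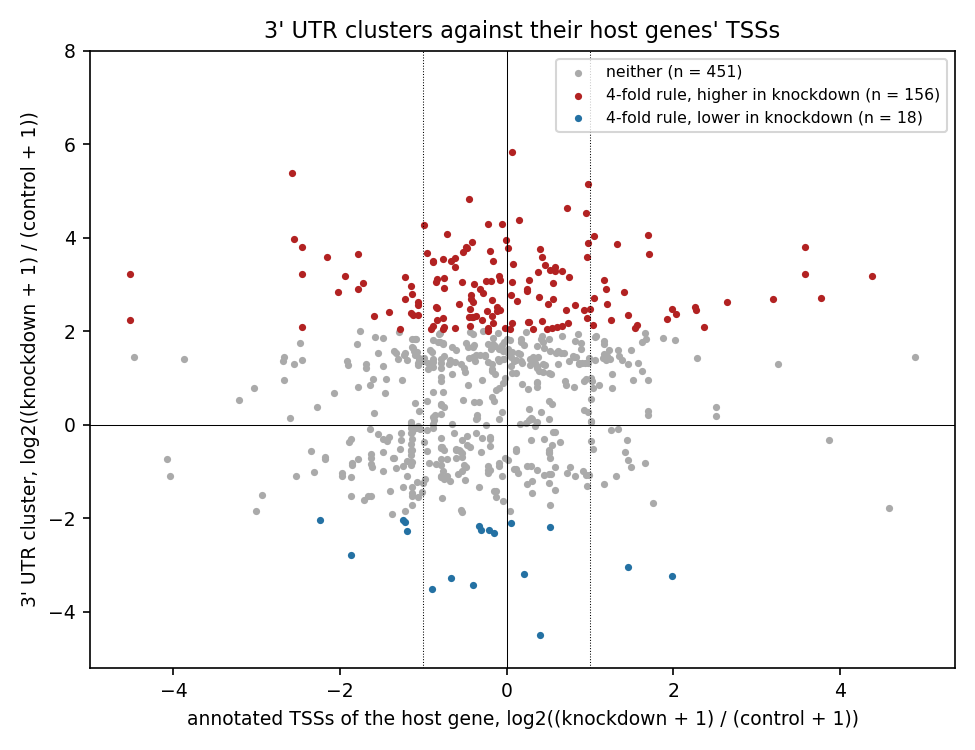
Log2 ratio of knockdown to control for each tested 3' UTR start cluster (vertical axis) against the same ratio for the summed annotated TSS clusters of its host gene (horizontal axis), with a pseudocount of 1 TPM; dotted lines mark a 2-fold change of the host. Gained clusters (n = 156) are found on both sides of 0 on the host axis, and 104 of them lie between the dotted lines, as do 274 of the 451 uncalled clusters.

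The shape of the clusters was described by the interquantile width in the group with the more tags, which for gained clusters is the knockdown. Its median was 34.5 bp for tested 3' UTR clusters, 45 bp for coding-exon clusters and 39 bp at annotated TSSs. Widths of 10 bp or less made up 20.8% in 3' UTRs, 13.2% in coding exons and 26.5% at annotated TSSs. Gained 3' UTR clusters were broader than uncalled ones, with medians of 47 and 30 bp, and 10.7% and 24.3% were at 10 bp or less. Their levels differed too, with medians of 7.26 TPM for gained and 1.94 TPM for uncalled clusters in the knockdown. From 100 up to 300 tags in all, the median width was 42 bp for 111 gained and 30 bp for 196 uncalled clusters, from 300 up to 1000 tags it was 51 and 48 bp, and from 1000 tags it was 48 and 66 bp, so the gained were not broader at every level. Among 480 clusters with a tag cluster called in both groups, 206 were wider in the knockdown and 95 were narrower, with medians of 34 bp in the knockdown and 28 bp in control. This was not particular to 3' UTRs. Over all tested consensus clusters, including those called in 1 group only, the median widths were 42 bp in the knockdown and 34 bp in control. Of the 38 clusters at 5 TPM or more in both groups, 23 kept the same dominant base and 11 moved it by more than 10 bp.

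Other genes lay close to some of the clusters. A same-strand TSS of another gene lay within 500 bp downstream of 85 clusters (11.4%), among them 13 of 187 gained (6.95%) and 4 of 20 lost clusters. A gene on the opposite strand covered the position in 113 clusters (15.2%), 40 of them gained (21.4% of the gained) and 69 uncalled (13.4%). A start cluster on the opposite strand within 500 bp upstream was found for 11.8% of the tested 3' UTR clusters, 18.7% of the gained ones, 18.0% of coding-exon clusters and 27.5% of clusters at annotated TSSs. In 12 of the 745 clusters the position fell in the 3' UTRs of more than 1 gene, and 1 lay in an annotated transposable element. At the distance limit of the rule, 17 clusters 101 to 150 bp from an annotated TSS had medians of 4.72 TPM in the knockdown and 1.08 TPM in control, and 11 clusters 51 to 100 bp away, which were not taken, had 4.57 and 2.57 TPM.

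By chromosome, 197 tested clusters lay on 3R, 182 on 2R, 131 on 3L, 120 on 2L, 90 on X, 2 on 4 and 0 on Y. The share on 2R was 25.2%, where 20.9% of all tested consensus clusters lay, and the share on X was 12.5%, where 10.7% of all lay. Of the clusters on X, 20 were gained (22.2%), against 24.0% of all tested clusters on X. On 2L, 36 of 120 were gained, 30.0%, against 34.5% of all.

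Each gene list of testis cell types and of basic cell functions held at most 8 tested 3' UTR clusters. Over all genes, 580 hosted a tested 3' UTR cluster, beside 12386 genes with a tested sense cluster. Of 28 late spermatocyte and spermatid genes, 3 hosted 8 tested clusters and none was called at the main setting, with a median log2 ratio of 0.43 beside 1.33 over all tested 3' UTR clusters. That median rests mainly on 1 gene, since 6 of the 8 clusters lay in bol, with log2 ratios from -0.98 to 1.25. The cluster in w-cup was at -1.09. In Mst98Ca, a sperm tail protein gene, the cluster was at 4.23 TPM in the knockdown and 18.6 TPM in control, a log2 ratio of -1.91. It was called lost after rescaling, at -2.46, and with a pseudocount of 0.5 TPM, at -2.02. Its annotated TSSs were at 664 TPM in the knockdown and 1724 TPM in control. The lists of early germline genes, of tMAC and tTAF regulators, of Kmg and NuRD, and of hub, muscle and accessory gland markers had no tested 3' UTR cluster among the names that matched the annotation, which were 9 of 10 in the early germline list, 11 of 16 in the tMAC and tTAF list and all names of the other 4 lists. The cyst list had 2 clusters, in so and zfh1, and neither was called. Of 2 clusters in the neuron list, that in Syt1, the synaptic vesicle calcium sensor gene, had no tag cluster called in control. It was gained at 3.95 TPM in the knockdown, at least 74.3-fold higher. This call was lost after rescaling, at 1.77. The neuron list as a whole summed to 197 TPM in the knockdown and 70.3 TPM in control, and its part in this gain was not tested. Of these 70.3 TPM, 1 gene held 65.3 TPM. Of the 10 neuron genes, 5 were at 0 in control and 2 in the knockdown. By annotated TSS level 8 of them were tested, with 7 gained, 1 lost and a median log2 ratio of 3.18.

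Of 22 genes of translation and housekeeping, 4 hosted 5 tested clusters, with 1 gained and 1 lost and a median log2 ratio of -0.90. Rack1, a ribosome-associated scaffold gene, had 9.09 TPM in the knockdown and 1.06 TPM in control, a log2 ratio of 2.29, and of 1.67 after rescaling, below the limit. The cytoplasmic actin gene Act5C had a cluster 60 bases into its 3' UTR at 2.06 TPM in the knockdown and 12.7 TPM in control, 6.15-fold lower, a loss not called with a pseudocount of 3 TPM (-1.63). Its annotated TSSs were at 258 and 326 TPM. In the list of RNA-binding and 3' UTR regulators, 2 of 12 genes (11 names matched) hosted 4 clusters, 3 of them in orb2, with a median log2 ratio of 1.38. Of these, 2 in orb2, a CPEB family translational regulator of spermatogenesis, were gained. The stronger held 14.2 TPM in the knockdown and 0.301 TPM in control, a ratio of 47.1 (29.1 to 81.4), and the weaker held 4.12 and 0.230 TPM and was not called after rescaling. The annotated TSSs of orb2 stood at 164 TPM in the knockdown and 279 TPM in control. Both positions in orb2 also lie inside another gene on the same strand, so the assignment of these tags to orb2 is uncertain.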

How the data were processed

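The submitters' processing notes list 2 builds, BDGP6 and dm6, and Trim Galore 0.6.6, STAR 2.7.11b and bedtools, with no role for any of them. No source used here names the cluster caller. The authors deposited 3 tables: tag clusters per group and a consensus list. The deposited column named TPM per the file headers held whole numbers whose sums differ between groups and far exceed 1000000, so it was treated as tag counts. The authors' other columns used here are the interquantile width in bp and the tags at the dominant position. Consensus clusters held at least 50 tags.

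Tag clusters were joined to consensus clusters by same-strand overlap, and counts were scaled per 1000000 tags per group. Tag clusters overlapping no consensus cluster held 1.30% of the tags in the knockdown and 0.200% in control. Positions were placed on Ensembl release 115 gene models (dm6 coordinates, counted from 1, transposable elements left out as TSSs). The host TSS level was the sum of clusters within 100 bp of an annotated TSS, credited to the nearest gene. Ratios carry exact binomial intervals, and a count of 0 has a floor of 3 tags over the pooled group (0.0858 TPM in the knockdown, 0.0531 TPM in control). Where a consensus cluster held more than 3 tags beyond those of its tag clusters, that excess was the floor. The floor was 3 tags for each named cluster. The position and fold rules were tested on simulated data. Named clusters were the 8 gained with the highest knockdown level, the 8 gained with the largest ratio, the 8 lost with the highest control level (gains and losses also past the rule after rescaling), the 8 with the highest mean level within 2-fold after rescaling, the 4 hosts with most clusters, and called clusters in listed genes. The members and gene lists were chosen with earlier results of these data known. Genome sequence was not used here, so no start-site sequences are given. Python 3.11.15, pandas 2.3.3, numpy 2.4.6, scipy 1.17.1 and matplotlib 3.10.9 were used.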

Additional observations from a re-analysis of the deposited data

How the results depend on the processing

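Each group is 1 pooled value, so leaving out a library could not be done. No paired analysis was possible because the columns carry no replicate. The counts depend on the pseudocount: 333 gained and 36 lost at 0.5 TPM, and 59 gained and 7 lost at 3 TPM, where the median log2 ratio was 0.63. After rescaling there were 108 gained and 34 lost. A filter of 5 TPM left 228 clusters with a median of 2.51. A 2-fold rule gave 413 gained and 93 lost, and calling losses by the absence of a knockdown tag cluster gave 31. Windows of 50 or 500 bp for annotated TSSs, no filter, the other choice of dominant position and the removal of positions in other same-strand genes kept the gained count between 165 and 187 and the lost count between 16 and 20. Among the named clusters that were called, 5 lost their call at 3 TPM and none at 0.5 TPM. The named gains and losses were chosen to pass the rule after rescaling, except for the 5 in listed genes, of which 3 lost their call there. The share of gained clusters with a host TSS within 2-fold was 53.7% when calls and hosts were both rescaled. Clusters with under 105 tags in all could not be called gained, and those with under 170 could not be called lost.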

Other observations

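Tag clusters that overlap no consensus cluster also fell in 3' UTRs by the same positional rule. There were 338 of these in the knockdown and 210 in control, with medians of 27 and 26 tags and a maximum of 49 tags in each. Their sum was 261 TPM in the knockdown and 95.5 TPM in control, and they enter none of the counts above.

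Among the 81 tested 3' UTR clusters within 500 bp upstream of the annotated TSS of the next gene on the same strand, the downstream TSS reached 1 TPM in 56. It stayed within 2-fold between knockdown and control in 32 of these. The 3' UTR cluster exceeded the downstream TSS in 34 cases in the knockdown and in 27 in control.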
